A study of Mus musculus with 11 samples.

Results

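Genes that mark hematopoietic stem and progenitor cells were followed in fetal livers at E15.5. They were 10 genes, chosen by symbol and matched to their Ensembl identifiers: *Kit*, *Flt3*, *Cd34*, *Procr* and *Cd48*, which encode proteins of the cell surface, and *Meis1*, *Hlf*, *Mecom*, *Gata2* and *Hoxa9*, which encode transcription factors. The tables list 52636 genes, of which 17243 passed the filter on low counts, and all 10 of these genes were among them. The rule used their symbols and not their levels.

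The RNA came from 11 whole livers, none of them treated. Of these 3 were *Casp8*-/- *Tnfr1*-/- and 3 were *Casp8*-/- *Mlkl*-/-, with 2 *Tnfr1*-/- and 3 WT livers as controls. The mutants were germline knockouts on a C57BL/6N background, so every cell of an embryo lacked the gene. Caspase-8 restrains necroptosis, TNFR1 is a death receptor that can start it, and MLKL carries out its last step. *Casp8*-/- *Mlkl*-/- livers therefore lack caspase-8 as the *Casp8*-/- *Tnfr1*-/- livers do, but cannot undergo necroptosis. *Tnfr1*-/- livers are the control for loss of the receptor alone. The comparisons ask whether stem and progenitor genes differ in livers that lack both caspase-8 and TNFR1. Nothing in the labels says which livers came from the same litter, and p values measure the spread between these livers.

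At this stage the liver is the main site of blood formation, and its hematopoietic stem cells expand there before they move to the bone marrow. Stem cells and early progenitors are a small minority of liver cells, beside many erythroid cells, hepatocytes, macrophages, endothelial and stromal cells. KIT and FLT3 are receptor tyrosine kinases that bind growth factors of the niche, while HLF, MECOM, MEIS1, GATA2 and HOXA9 belong to the transcription factor network that maintains stem cell identity. Several of the genes are also used by other cells. *Kit* and *Gata2* are expressed in mast cells, *Cd34* and *Procr* in endothelium, *Flt3* in early lymphoid and dendritic cell progenitors, *Cd48* in most leukocytes and *Hlf* in hepatocytes. In RNA of a whole liver, fewer cells of a type and less RNA per cell cannot be told apart.

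The upstream sequences of 4 of the genes are shown because the results turn on them. *Cd34* and *Flt3* were the genes whose *Casp8*-/- *Tnfr1*-/- livers did not overlap the other livers, and *Procr* and *Cd48* passed the threshold in some of the fits. Each sequence is the 250 bases before the start of the RefSeq transcript on GRCm38.p6, 5′ to 3′ on the strand of the gene, at chr1:194938571-194938820 (+) for *Cd34*, chr5:147400490-147400739 (-) for *Flt3*, chr2:155750967-155751216 (+) for *Procr* and chr1:171681742-171681991 (+) for *Cd48*. Capitals mark a match to a searched motif, and there is 1, a RUNX match in *Cd48*.
Cd34: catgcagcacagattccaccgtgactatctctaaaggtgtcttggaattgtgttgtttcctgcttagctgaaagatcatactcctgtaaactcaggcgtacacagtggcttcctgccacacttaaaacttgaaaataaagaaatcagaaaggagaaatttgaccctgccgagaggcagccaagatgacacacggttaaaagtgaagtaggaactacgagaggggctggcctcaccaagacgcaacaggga
Flt3: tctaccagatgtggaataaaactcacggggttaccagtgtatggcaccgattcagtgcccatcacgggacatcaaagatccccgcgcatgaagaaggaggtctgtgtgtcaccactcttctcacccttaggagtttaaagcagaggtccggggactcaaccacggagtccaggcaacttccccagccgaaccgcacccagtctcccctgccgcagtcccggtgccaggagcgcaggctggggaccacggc
Procr: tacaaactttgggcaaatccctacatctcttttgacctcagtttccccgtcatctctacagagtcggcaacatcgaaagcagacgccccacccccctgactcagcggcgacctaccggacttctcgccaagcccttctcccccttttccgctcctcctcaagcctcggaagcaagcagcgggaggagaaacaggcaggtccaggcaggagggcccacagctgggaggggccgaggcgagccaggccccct
Cd48: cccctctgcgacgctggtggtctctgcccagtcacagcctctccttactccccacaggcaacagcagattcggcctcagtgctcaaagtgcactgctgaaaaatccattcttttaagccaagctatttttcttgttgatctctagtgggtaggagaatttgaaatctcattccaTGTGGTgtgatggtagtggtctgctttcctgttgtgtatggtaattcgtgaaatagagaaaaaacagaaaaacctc

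All 10 genes matched RefSeq starts, 13 in number, and 6 motifs of factors used in blood cells were searched on both strands of these windows: the letters AGATAA, or TGATAA in their place, for GATA factors, TGTGGT for RUNX factors, GAGGAA for PU.1, TGACAG for MEIS factors, and the interferon-stimulated response element (ISRE) and gamma-activated site (GAS) by name. PU.1 was found once upstream of *Kit* and 3 times upstream of *Hoxa9*, and it is held by 23.3% of 32851 mouse promoters of the same length. RUNX was found upstream of *Cd48* and *Meis1*, against 14.0% of all promoters. *Mecom* has more than 1 start, with a MEIS match before the first and a GATA and an ISRE match before the second. MEIS is held by 15.9%, GATA by 16.6% and ISRE by 2.98% of all promoters. None of the letters was found upstream of *Cd34*, *Flt3*, *Procr*, *Gata2* or *Hlf*, and the GAS letters, held by 7.02% of promoters, in none of the 13 windows.

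Library totals lay between 23129212 and 35819339 reads on genes, with a median of 25733946. *Casp8* was measured at 27.7 to 33.6 CPM (counts scaled to a common library size with TMM factors) in WT livers, and it was lower in both genotypes that lack it, with 7.82 to 10.2 CPM beside the *Mlkl* deletion and 11.5 to 21.9 CPM beside the *Tnfr1* deletion. *Mlkl* was at 0.729 to 1.22 CPM in *Casp8*-/- *Mlkl*-/- livers and at 4.23 to 4.45 in WT livers. *Tnfrsf1a*, the gene of TNFR1, was at 49.8 to 50.5 CPM in *Tnfr1*-/- livers and 47.1 to 53.4 in WT livers. Its counts sum the whole gene, and since the sources used here do not place the deleted part, they do not check this label.

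A pair of livers stood apart from the others, and leaving out both was chosen after seeing the data. Log2 CPM of *Casp8*-/- *Tnfr1*-/- replicate 3 correlated with those of the other livers across genes at r = 0.840 to 0.891, whereas the other 10 livers correlated at 0.949 or more with each other. This liver held 1544 CPM of a list of 10 striated muscle genes, against 14.6 to 37.6 in the other livers, and 5761 CPM of 8 stromal genes, against 1143 to 1557. It was also the liver with *Xist*, the RNA of the inactive X chromosome, at 3407 CPM, against at most 0.569 in the other 10. *Casp8*-/- *Mlkl*-/- replicate 1 held 237207 CPM of 9 hepatocyte genes, against 53719 to 111667 elsewhere, and 124 CPM of 10 lymphoid progenitor genes, against 16.8 to 47.7. When limma-voom estimated a weight per library, these livers were given 0.114 and 0.0383, in the order *Casp8*-/- *Mlkl*-/- and *Casp8*-/- *Tnfr1*-/-, and the others 1.15 to 2.64. Results are therefore given with and without them.

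In WT livers the genes covered a wide range of levels. Per kilobase of gene length, in RPKM recomputed from the scaled counts, *Kit* was highest at 15.1 ± 1.90 (SD, n = 3). *Cd34* followed at 10.3 ± 0.929 RPKM, *Cd48* at 7.73 ± 1.04 and *Hlf* at 5.79 ± 0.336. These 4 genes did not overlap with their neighbours in the order.
*Gata2* at 2.60 ± 0.194 RPKM and *Meis1* at 2.37 ± 0.171 overlapped between WT livers. *Flt3* lay apart at 1.56 ± 0.360 RPKM. *Procr* at 0.713 ± 0.322 and *Mecom* at 0.628 ± 0.0234 overlapped again, and *Hoxa9* was lowest at 0.167 ± 0.0612.

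None of the 10 genes passed an adjusted p of 0.05 in edgeR's quasi-likelihood test of *Casp8*-/- *Tnfr1*-/- against WT livers. Over all genes tested, 5.10% were called higher and 0.702% lower in this comparison. *Flt3* and *Procr* were under 0.05 unadjusted. DESeq2 called *Procr* higher, where it called 10.3% of all genes higher, and limma-voom called none of the 10. The median log2 fold change of the 10 genes was 0.06, against -0.0015 over all genes, and 6 of 10 were positive.

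Against *Tnfr1*-/- livers edgeR again called none, where it called 2.05% of all genes higher and 0.122% lower, and *Flt3* and *Procr* were under 0.05 unadjusted. Against *Casp8*-/- *Mlkl*-/- livers it called none, with 1.54% of all genes higher and 0.116% lower, and none of the 10 was under 0.05 unadjusted. Neither DESeq2 nor limma-voom called any of them in these comparisons. Since the same *Casp8*-/- *Tnfr1*-/- livers enter all 3 of them, these comparisons are not independent. An F test over the 4 genotypes called none of the 10 and 3.60% of all genes, and *Procr* alone was under 0.05 unadjusted.

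The fits differed in how many genes they called at all, and calls of the 10 genes are read against these shares. DESeq2 called 3.42% of all genes lower against WT, 6.42% higher and 0.940% lower against *Tnfr1*-/-, 4.55% higher and 0.905% lower against *Casp8*-/- *Mlkl*-/-, and 10.1% over the 4 genotypes. limma-voom with quality weights called 17.0% higher and 13.6% lower against WT, 14.6% and 10.5% against *Tnfr1*-/-, and 29.2% over the genotypes. It called 3 of the 10 against WT (*Flt3*, *Procr*, *Cd48*) and 5 against *Tnfr1*-/- (those 3, *Meis1* and *Hlf*).
Without *Casp8*-/- *Tnfr1*-/- replicate 3, edgeR called 7.28% higher and 2.55% lower against WT, 4.46% and 0.728% against *Tnfr1*-/-, 2.83% and 0.335% against *Casp8*-/- *Mlkl*-/-, and 5.67% over the genotypes. Of the 10 genes it then called *Cd48* alone. Without both livers that stand apart it called 17.8% and 13.5%, 13.9% and 9.30%, 12.0% and 6.10%, in the same order, and 30.8% over the genotypes. It then called 4 of the 10 against WT, 4 against *Tnfr1*-/- and 1 against *Casp8*-/- *Mlkl*-/-.

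The spread between livers can be seen gene by gene. Without regard to a test, the 3 *Casp8*-/- *Tnfr1*-/- livers lay above the 8 other livers in 1 of the 10 genes, *Cd34*, and below them in 1, *Flt3*. Such a separation above was found in 7.43% of all genes tested, and below in 3.32%. With library totals these shares were 8.47% and 1.77%, and *Flt3* overlapped. With DESeq2 size factors they were 7.17% and 3.67%, and *Hlf* also lay below. Leaving out WT replicate 1 (7.97% above, 3.18% below) or *Casp8*-/- *Tnfr1*-/- replicate 1 (10.1%, 5.30%) likewise put *Hlf* below. Without replicate 2 of *Casp8*-/- *Tnfr1*-/- (10.3%, 6.14%) *Procr* also lay above and *Gata2* below. Without replicate 3 (10.8%, 5.81%), and without both livers that stand apart (18.6%, 12.3%), *Cd48* also lay above and *Mecom* below.

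**Figure D1:**
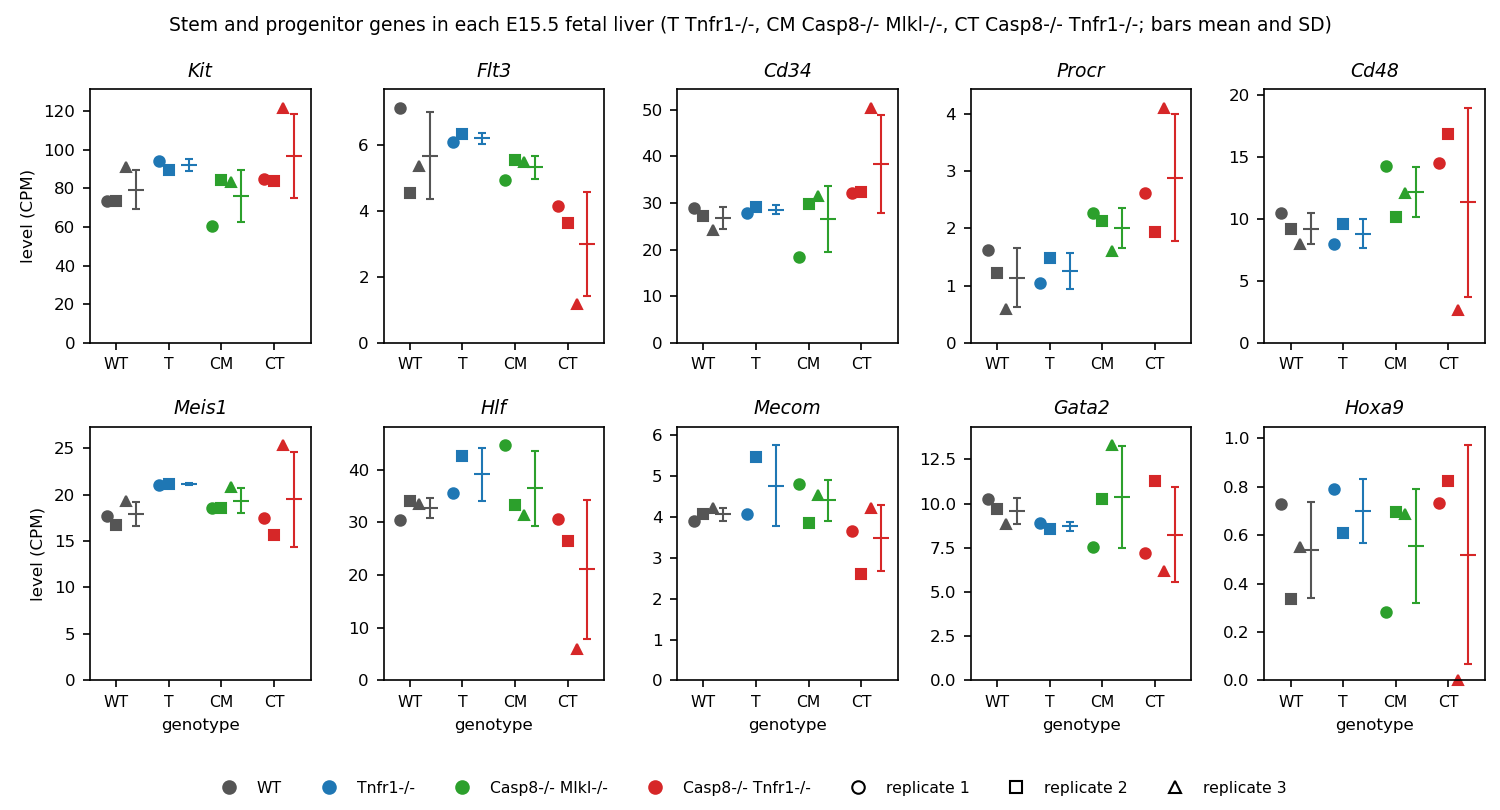
Level of each gene in each liver, in CPM on a linear axis from 0. Points are livers, with the replicate number as the shape, and the bars beside them are the mean and SD of a genotype (n = 3, n = 2 for *Tnfr1*-/-). *Casp8*-/- *Tnfr1*-/- replicate 3, the red triangle, is the highest or the lowest of the 11 livers in 9 of the 10 panels.

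*Kit*, the receptor for stem cell factor, was measured at 73.7, 73.7 and 90.9 CPM in WT and at 94.3 and 89.8 in *Tnfr1*-/- livers. *Casp8*-/- *Mlkl*-/- livers had 60.6, 84.4 and 83.3 CPM, and *Casp8*-/- *Tnfr1*-/- livers 84.9, 83.6 and 122. The groups overlapped, and the highest and lowest values were those of the livers that stood apart. *Kit* was 0.28 higher than in WT on the log2 scale (SE 0.192, adjusted p = 0.371 by edgeR), with a 95% interval from -0.14 to 0.71. Without *Casp8*-/- *Tnfr1*-/- replicate 3 the difference was 0.09. The gene lies at chr5:75574916-75656722 (+).

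*Flt3*, the receptor for FLT3 ligand, was found at 7.14, 4.57 and 5.36 CPM in WT, 6.10 and 6.34 in *Tnfr1*-/- and 4.94, 5.55 and 5.50 in *Casp8*-/- *Mlkl*-/- livers. In *Casp8*-/- *Tnfr1*-/- livers it was at 4.15, 3.65 and 1.20 CPM. All 3 lay below every other liver, which held under TMM and DESeq2 scaling and when hemoglobin genes were left out of the library sizes, but not with library totals alone.
The log2 difference was -0.91 against WT (SE 0.382, adjusted p = 0.179), -1.04 against *Tnfr1*-/- (adjusted p = 0.257) and -0.82 against *Casp8*-/- *Mlkl*-/- (adjusted p = 0.347). With both livers that stand apart left out it was -0.53 against WT (adjusted p = 0.0449) and -0.65 against *Tnfr1*-/- (adjusted p = 0.0292), and edgeR then called 13.5% and 9.30% of all genes lower. Counts of this gene were low, between 21 and 223 per liver. The gene (chr5:147330741-147400489, minus strand) overlaps the antisense gene *Gm26597*, and without knowledge of strand the reads of the overlap cannot be assigned.

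*Cd34* encodes a sialomucin of the surface of progenitors and endothelium. WT livers had 28.9, 27.3 and 24.2 CPM, *Tnfr1*-/- livers 27.9 and 29.2, and *Casp8*-/- *Mlkl*-/- livers 18.5, 29.9 and 31.5. The *Casp8*-/- *Tnfr1*-/- livers had 32.2, 32.3 and 50.4 CPM. These were the highest values of all livers, under every scaling and with each liver left out in turn, although the gap between 31.5 and 32.2 CPM is small.
The log2 difference against WT was 0.51 (SE 0.237, 95% interval -0.01 to 1.04, adjusted p = 0.214), a fold of 1.43. It was 0.42 against *Tnfr1*-/- (adjusted p = 0.462) and 0.52 against *Casp8*-/- *Mlkl*-/- (adjusted p = 0.329). With both livers that stand apart left out, it was 0.28 against WT (SE 0.0875, adjusted p = 0.0239), where edgeR called 17.8% of all genes higher. The antisense gene *Gm16897* overlaps *Cd34* (chr1:194938819-194961279, plus strand) and shares 2.14% of its 50-base stretches. Over 10 endothelial genes, the summed level was 545, 496 and 978 CPM in the *Casp8*-/- *Tnfr1*-/- livers and 462 to 723 CPM in the 8 others. The highest sum was in the liver with the highest *Cd34*. The next, 723 CPM, was in *Casp8*-/- *Mlkl*-/- replicate 1, the liver with the lowest *Cd34*. The part of endothelium in the level of *Cd34* was not tested.

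*Procr*, which encodes the endothelial protein C receptor that marks stem cells of the fetal liver, was low, with 15 to 86 counts per liver. It was at 1.61, 1.21 and 0.591 CPM in WT, 1.04 and 1.48 in *Tnfr1*-/-, 2.27, 2.12 and 1.60 in *Casp8*-/- *Mlkl*-/- and 2.62, 1.93 and 4.10 in *Casp8*-/- *Tnfr1*-/- livers. All 3 *Casp8*-/- *Tnfr1*-/- livers lay above all WT and *Tnfr1*-/- livers, but overlapped *Casp8*-/- *Mlkl*-/- livers.
The log2 difference against WT was 1.33 (SE 0.418, 95% interval 0.40 to 2.26, adjusted p = 0.0932), a fold of 2.51 and the largest among the 10 genes. It was 1.19 against *Tnfr1*-/- (adjusted p = 0.252) and 0.52 against *Casp8*-/- *Mlkl*-/- (SE 0.406, adjusted p = 0.555). *Casp8*-/- *Mlkl*-/- livers were 0.81 above WT (SE 0.416, adjusted p = 0.894). In 3 of 22 alternative fits *Procr* rose against WT past the threshold, which were DESeq2 (1.34, adjusted p = 0.0237), limma-voom with quality weights (0.99, adjusted p = 0.0225) and edgeR without both livers that stand apart (1.01, adjusted p = 0.0383). The gene lies at chr2:155751117-155755471 (+).

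*Cd48*, a ligand of the SLAM family that is found on progenitors and most leukocytes and lacking on adult stem cells, was at 10.4, 9.17 and 7.96 CPM in WT and 7.95 and 9.60 in *Tnfr1*-/- livers. *Casp8*-/- *Mlkl*-/- livers had 14.2, 10.1 and 12.1 CPM. *Casp8*-/- *Tnfr1*-/- livers had 14.5, 16.9 and 2.62 CPM, so that this group held both the highest values and the lowest.
Over all livers the log2 difference against WT was 0.31 (SE 0.503, adjusted p = 0.710). It was -0.07 without *Casp8*-/- *Tnfr1*-/- replicate 2, and -0.01 against *Tnfr1*-/- without the same liver. Without *Casp8*-/- *Tnfr1*-/- replicate 3 it was 0.77 (SE 0.182, adjusted p = 0.0283), where 7.28% of all genes were called higher, and 0.84 against *Tnfr1*-/- (adjusted p = 0.0481), where 4.46% were. With both livers that stand apart left out it was 0.78 against WT (adjusted p = 0.000785), 0.85 against *Tnfr1*-/- (adjusted p = 0.00119) and 0.51 against *Casp8*-/- *Mlkl*-/- (adjusted p = 0.0353), whereas the difference from *Casp8*-/- *Mlkl*-/- over all livers was -0.10. Among all genes 17.8%, 13.9% and 12.0% were called higher in these fits. The gene lies at chr1:171682009-171705258 (+) and overlaps *Gm37010* on the same strand.

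Among the transcription factors, *Meis1*, a homeobox partner of HOX proteins, varied least. It was at 17.7, 16.8 and 19.3 CPM in WT, 21.05 and 21.2 in *Tnfr1*-/-, 18.6, 18.6 and 20.9 in *Casp8*-/- *Mlkl*-/- and 17.5, 15.7 and 25.3 in *Casp8*-/- *Tnfr1*-/- livers. The highest and the lowest liver were both *Casp8*-/- *Tnfr1*-/-. The log2 difference against WT was 0.12 (SE 0.185, adjusted p = 0.701), and it was -0.11 without replicate 3. With both livers that stand apart left out, *Meis1* fell against *Tnfr1*-/- by 0.33 on the log2 scale (adjusted p = 0.0432). Of its 50-base stretches 17.0% are shared, mostly with *Gm37818* on the same strand, so its counts at chr11:18879817-19018985 (minus strand) are uncertain.

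*Hlf*, a bZIP factor of stem cells and hepatocytes, was measured at 30.5, 34.1 and 33.5 CPM in WT and 35.6 and 42.6 in *Tnfr1*-/- livers. It was at 44.6, 33.2 and 31.5 CPM in *Casp8*-/- *Mlkl*-/- livers and at 30.7, 26.5 and 5.98 in *Casp8*-/- *Tnfr1*-/- livers. The first of these overlapped WT by a small margin and the last was 5.73-fold lower than the mean of the other 10 livers.
The log2 difference was -0.63 against WT (SE 0.450, adjusted p = 0.397), and -0.19 without replicate 3. Against *Tnfr1*-/- it was -0.89 (adjusted p = 0.409) over all livers and -0.43 (adjusted p = 0.00876) without both livers that stand apart. The liver with the highest *Hlf*, *Casp8*-/- *Mlkl*-/- replicate 1, was that with the most hepatocyte RNA. The liver with the lowest *Hlf*, *Casp8*-/- *Tnfr1*-/- replicate 3, had the next highest sum of hepatocyte genes. That sum was 111667 CPM, against 53719 to 81192 in the remaining livers. The part of hepatocytes in the level of *Hlf* was not tested. The gene lies at chr11:90336536-90390895 (minus strand).

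*Mecom*, which encodes the zinc finger factor EVI1, was low and even. WT livers had 3.92, 4.06 and 4.22 CPM, *Tnfr1*-/- livers 4.07 and 5.47, and *Casp8*-/- *Mlkl*-/- livers 4.82, 3.86 and 4.55. *Casp8*-/- *Tnfr1*-/- livers had 3.66, 2.61 and 4.21 CPM. Replicates 1 and 2 of *Casp8*-/- *Tnfr1*-/- were the lowest of the 11 livers, and replicate 3 lay among the others. The log2 difference against WT was -0.22 (SE 0.236, adjusted p = 0.562) and -0.37 without replicate 3 (adjusted p = 0.339). The gene (chr3:29951296-30548008, minus strand) overlaps 5 predicted genes on its own strand and the antisense genes *Mecomos* and *Gm37024*.

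*Gata2*, a zinc finger factor of stem cells and mast cells, was found at 10.2, 9.68 and 8.83 CPM in WT, 8.91 and 8.54 in *Tnfr1*-/-, 7.54, 10.3 and 13.3 in *Casp8*-/- *Mlkl*-/- and 7.23, 11.3 and 6.21 in *Casp8*-/- *Tnfr1*-/- livers. The groups overlapped throughout. The log2 difference against WT was -0.22 (SE 0.265, adjusted p = 0.615), and -0.04 without replicate 3. It lies at chr6:88193891-88207032 (+).

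*Hoxa9*, a homeobox factor of progenitors, was at the limit of detection, with 0 to 29 counts per liver. It was at 0.729, 0.335 and 0.552 CPM in WT, 0.793 and 0.607 in *Tnfr1*-/-, 0.284, 0.697 and 0.687 in *Casp8*-/- *Mlkl*-/- and 0.732, 0.826 and 0 in *Casp8*-/- *Tnfr1*-/- livers. The count of 0 in replicate 3 allows up to 3 counts, or 0.171 CPM, which is at least 3.65-fold lower than the mean of the other 10 livers. In the other *Casp8*-/- *Tnfr1*-/- livers *Hoxa9* lay just above the WT range. The difference from WT, 0.01 on the log2 scale with an SE of 0.761, was not resolved at this depth. Limits of this kind cover counting error only. The gene lies at chr6:52223100-52231089 (minus strand) and includes *Mir196b*.

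**Figure D2:**
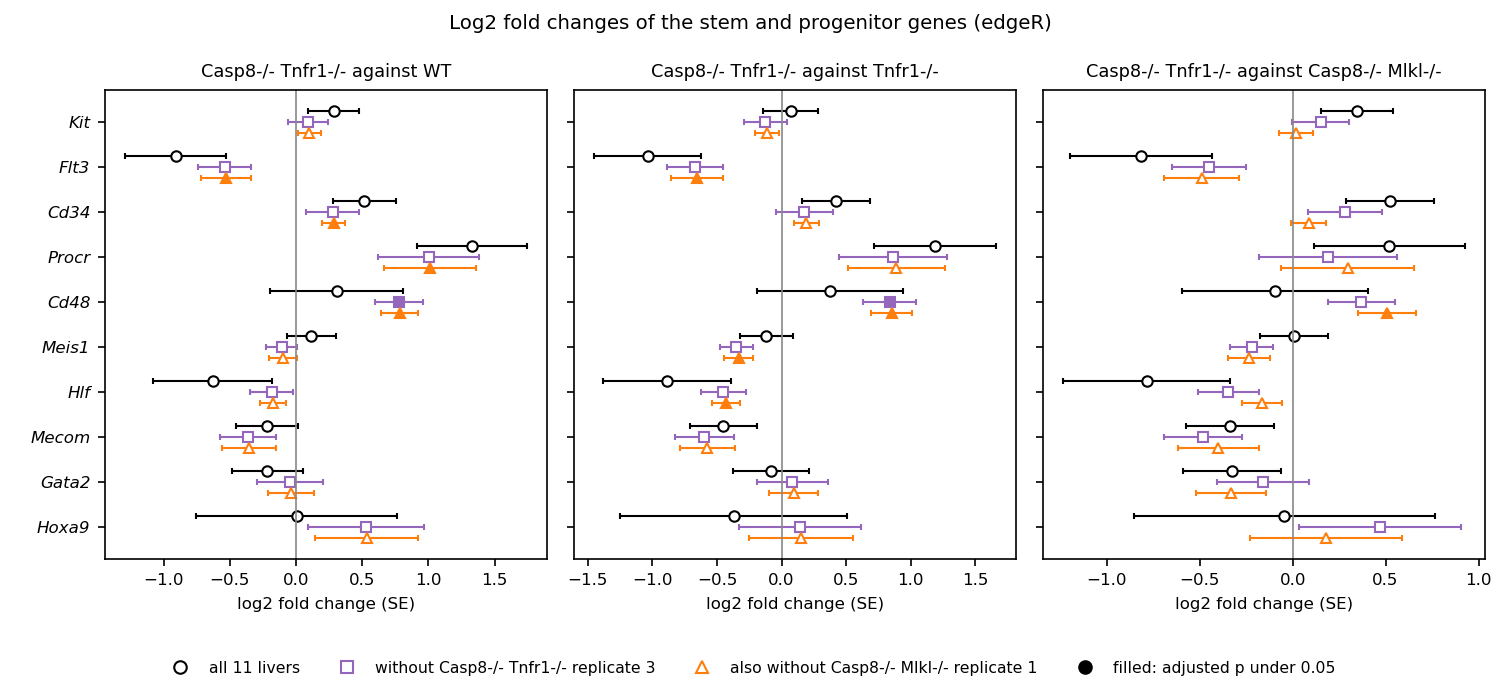
Log2 fold change of *Casp8*-/- *Tnfr1*-/- livers against each other genotype, with SE bars, by edgeR. Circles are fits of all 11 livers, squares leave out *Casp8*-/- *Tnfr1*-/- replicate 3, triangles also leave out *Casp8*-/- *Mlkl*-/- replicate 1, and filled symbols have an adjusted p under 0.05. No circle is filled, 2 squares are, both *Cd48*, and 9 triangles are.

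Replicate 3 of *Casp8*-/- *Tnfr1*-/- was the highest of the 11 livers in 4 of the 10 genes (*Kit*, *Cd34*, *Meis1*, *Procr*) and the lowest in 5 (*Flt3*, *Hlf*, *Gata2*, *Hoxa9*, *Cd48*). Among all genes tested it was at either end in 71.1%. In this liver *Flt3* was 4.46-fold and *Cd48* 4.31-fold lower than the mean of the other 10 livers, while *Cd34* was 1.79-fold and *Procr* 2.49-fold higher. Summed over the 10 genes it had 222 CPM, against 176 to 215 in the other 10 livers, the highest sum but one close to the others.
Replicate 1 of *Casp8*-/- *Mlkl*-/- was at either end in 3 of the 10, *Kit* and *Cd34* at the low end and *Hlf* at the high end, against 27.2% of all genes.

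The spread within genotypes was smaller without these livers. The pooled SD of log2 CPM was largest for *Hoxa9* (1.18), *Cd48* (0.81), *Hlf* (0.71), *Flt3* (0.54) and *Procr* (0.50), and smallest for *Meis1* (0.21), with a median of 0.37 over all genes. With both livers left out it was 0.18 for *Cd48*, 0.12 for *Hlf*, 0.09 for *Cd34* and 0.11 for *Kit*, against a median of 0.14. *Procr* alone kept a spread of 0.50, and *Mecom*, at 0.23 and 0.22, also changed little.

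In comparisons between the control genotypes edgeR called none of the 10 genes. Of all genes 0.00580% were called higher and 0 lower in *Casp8*-/- *Mlkl*-/- against WT livers, 0 in *Tnfr1*-/- against WT livers, and 0.00580% higher and 0 lower in *Casp8*-/- *Mlkl*-/- against *Tnfr1*-/- livers. None of the 10 was under 0.05 unadjusted in these comparisons, and none was called in any of 22 alternative fits, DESeq2 and limma-voom included. Some of these fits called many other genes. With quality weights 551 were higher and 491 lower in *Casp8*-/- *Mlkl*-/- against WT, and 150 and 121 in *Tnfr1*-/- against WT. DESeq2 gave 79 and 11, and 0 and 0. Without both livers that stand apart these were 547 and 539, and 59 and 56, and with the 2 genotypes alone *Tnfr1*-/- against WT gave 138 and 121. The log2 differences lay between -0.09 (*Flt3*) and 0.81 (*Procr*) for *Casp8*-/- *Mlkl*-/- against WT livers, and between -0.14 (*Gata2*) and 0.38 (*Hoxa9*) for *Tnfr1*-/- against WT livers. For *Kit*, the gene with the most counts, the 95% interval of *Casp8*-/- *Mlkl*-/- against WT ran from -0.49 to 0.37.

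The genes nearest in pattern were sought by the root mean square difference of log2 CPM over the 11 livers, each gene centred on its mean. *Ogt* and *Ep400* were nearest to *Kit* (both 0.089), *Ccdc66* (0.124) and *Zc3hav1* (0.125) to *Cd34*, and *Fbxo36* (0.0996) and *Lzts1* (0.164) to *Flt3*. For *Meis1* they were *Marf1* (0.0864) and *Mau2* (0.0876), for *Hlf* *Amt* (0.111) and *Gm33280* (0.153), and for *Mecom* *Dop1b* (0.130) and *Zfp189* (0.145). For *Gata2* they were *Oxct1* (0.126) and *Hexim2* (0.135), for *Hoxa9* *Adam32* (0.252) and *Gm15207* (0.263), for *Procr* *Plcd1* (0.266) and *Filip1l* (0.297), and for *Cd48* *Pdxk* (0.181) and *Tmem229b* (0.193).
None of these nearest genes was another of the 10, which are few among the 17243 genes tested. *Mecom* and *Cd34* came closest to one, with 0.290% of genes nearer to *Mecom* than *Meis1* was, and 0.447% nearer to *Cd34* than *Kit* was. By this share *Gata2* was least like the others, with 41.0% of all genes nearer than *Meis1*. The measure was not scaled to the spread of a gene, so genes that vary little lie near each other whatever their pattern. *Mecom* lay 0.202 from *Meis1*, and its own root mean square deviation from its mean was 0.249. These distances therefore do not show a shared pattern.

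Other surface proteins of stem and progenitor cells included genes that rose. Of 14 stem cell surface proteins besides those above, 3 rose and 0 fell in *Casp8*-/- *Tnfr1*-/- against WT livers, beside 5.10% and 0.702% of all genes. Their median log2 fold change was 0.76. *Casp8*-/- *Mlkl*-/- livers also lay above WT in 13 of the 14, with a median of 0.43 and 0 called. Between *Casp8*-/- *Tnfr1*-/- and *Casp8*-/- *Mlkl*-/- livers the median was 0.25, with 7 of 14 positive. *Ly6a*, which encodes the stem cell antigen SCA-1 and is induced by interferon, was at 0.461 to 0.986 CPM in WT, 0.601 to 1.21 in *Tnfr1*-/-, 1.36 to 1.94 in *Casp8*-/- *Mlkl*-/- and 6.47 to 10.5 in *Casp8*-/- *Tnfr1*-/- livers, the last of which lay above all others. It rose by 3.47 on the log2 scale against WT (SE 0.394, adjusted p = 0.0011), by 3.15 against *Tnfr1*-/- (adjusted p = 0.00708) and by 2.24 against *Casp8*-/- *Mlkl*-/- (adjusted p = 0.0169). As 19.0% of its 50-base stretches are also in other genes, mostly in *Ly6c1*, its counts are uncertain in part.
*Ptprc*, the pan-leukocyte antigen CD45, rose by 2.32 (SE 0.406, adjusted p = 0.0105), and its range of 84.9 to 235 CPM did not overlap that of WT, 21.9 to 30.7. *Cd93*, a C-type lectin of progenitors and endothelium, rose by 1.27 (SE 0.314, adjusted p = 0.0451). Both were called against WT and not against the other genotypes, and the differences between these comparisons were not tested. Without replicate 3 they rose by 1.67 and 0.75, and 3 of the 14 were called again, beside 7.28% of all genes called higher. The call of *Ptprc* was lost without any 1 WT liver, and that of *Cd93* held in 4 of 11 fits with 1 liver left out, lost without any 1 WT or *Tnfr1*-/- liver or *Casp8*-/- *Mlkl*-/- replicate 2 or 3 (adjusted p up to 0.167).

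Among 22 further transcription factors of stem and progenitor cells, 20 were tested. Against WT 1 rose and 0 fell, beside 5.10% and 0.702% of all genes. The median log2 fold change was 0.09. *Spi1*, which encodes PU.1, was at 12.6 to 21.3 CPM in WT and 39.9 to 62.1 in *Casp8*-/- *Tnfr1*-/- livers. It rose by 1.52 against WT (SE 0.257, adjusted p = 0.00888) and by 1.54 against *Tnfr1*-/- (adjusted p = 0.0283), and was called in all 22 alternative fits against WT and 16 of 22 against *Tnfr1*-/-. Against *Casp8*-/- *Mlkl*-/- the difference was 1.02 and not called (adjusted p = 0.0878), and it was called in 5 of 22 alternatives. With both livers that stand apart left out, 7 of the stem cell transcription factors rose and 5 fell, with a median of -0.04, in a fit that called 17.8% of all genes higher and 13.5% lower.

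Signals of the niche were also measured. Of 9 niche ligands, 0 rose and 1 fell against WT, beside 5.10% and 0.702% of all genes, with a median of -0.38. *Cxcl12*, the chemokine that retains stem cells in their niche, was at 172 to 183 CPM in WT, 186 to 218 in *Tnfr1*-/-, 163 to 173 in *Casp8*-/- *Mlkl*-/- and 88.3 to 128 in *Casp8*-/- *Tnfr1*-/- livers. It fell by 0.66 on the log2 scale against WT (SE 0.156, adjusted p = 0.0391) and by 0.84 against *Tnfr1*-/- (SE 0.171, adjusted p = 0.0372), and these livers did not overlap the others. It was called against WT in 11 of 22 alternative fits. With library totals in place of TMM factors it was -0.70 and not called (adjusted p = 0.187), and leaving out any 1 WT or *Tnfr1*-/- liver, or *Casp8*-/- *Mlkl*-/- replicate 2 or 3, also ended the call, which held in 4 of 11 such fits. Against *Casp8*-/- *Mlkl*-/- *Cxcl12* differed by -0.56 and was not called (adjusted p = 0.126). *Kitl*, the ligand of KIT, ranged from 50.2 to 66.3 CPM in WT and from 13.7 to 51.0 in *Casp8*-/- *Tnfr1*-/- livers and was not called.
Of 7 genes of the fetal programme, which distinguishes fetal from adult stem cells, none was called by edgeR against WT over all livers. *Igf2bp2*, which encodes an RNA-binding protein, and *Arid3a*, which encodes a B cell factor, had the smallest p, with log2 differences of 1.01 (adjusted p = 0.0859) and 0.50 (adjusted p = 0.130). Without replicate 3, 3 of the 7 rose, *Igf2bp2* by 0.45 (adjusted p = 0.0247) and *Arid3a* by 0.63 (adjusted p = 0.0408) among them. In that fit 7.28% of all genes were called higher.

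**Figure D3:**
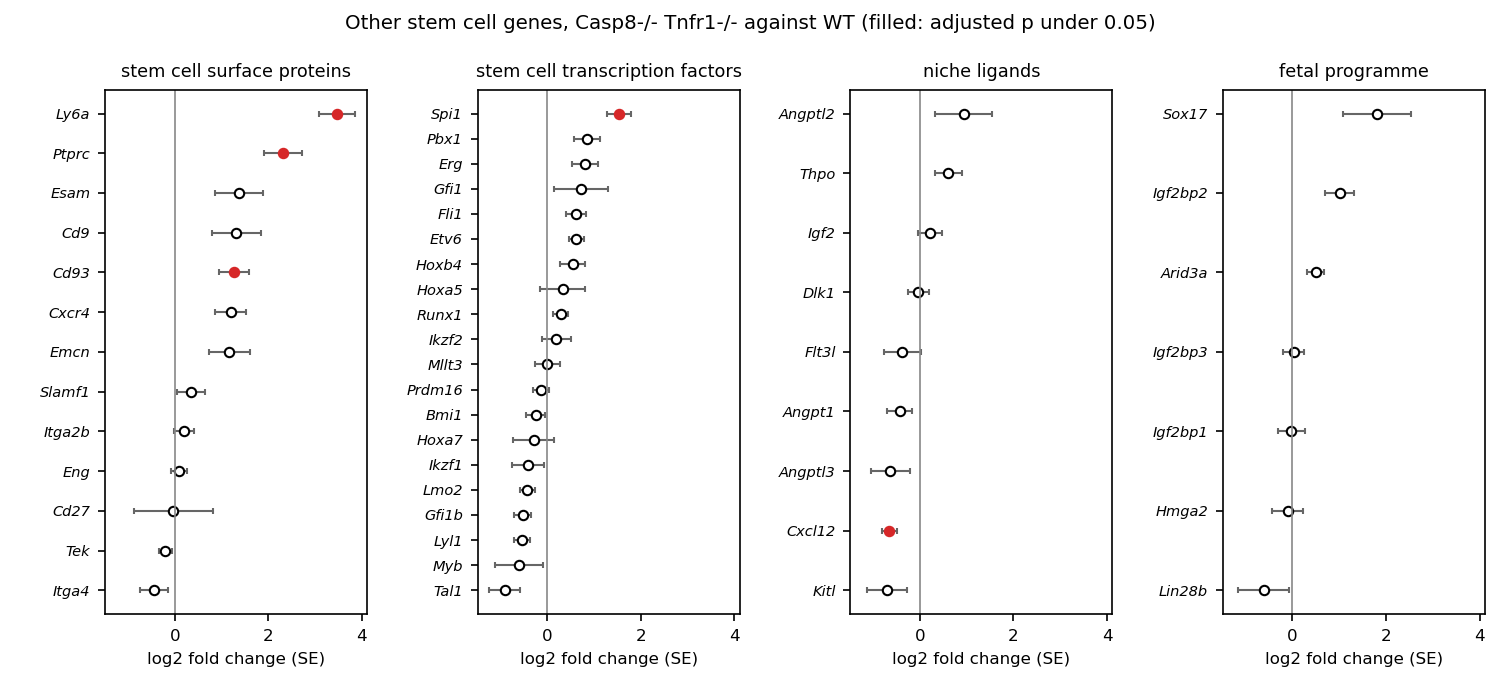
Log2 fold change with SE of the other stem cell genes in *Casp8*-/- *Tnfr1*-/- against WT livers by edgeR, in 4 lists, with 1 gene of the surface list not shown. Filled points have an adjusted p under 0.05, which are *Ly6a*, *Ptprc* and *Cd93* among surface proteins, *Spi1* among transcription factors and *Cxcl12* among niche ligands.

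Descendants of the stem cells and the other cells of the liver were read from marker lists. Against WT edgeR called 5.10% of all genes higher and 0.702% lower, and calls of list genes are read beside these shares. Neutrophil genes stood out, with 8 of 10 higher and 0 lower against WT and a median log2 fold change of 3.78. *Lcn2*, which encodes lipocalin-2, rose by 4.87 (SE 0.778, adjusted p = 0.00687), *S100a8* by 3.31 (adjusted p = 0.013), *S100a9* by 3.53 (adjusted p = 0.0182) and *Cxcr2*, a chemokine receptor, by 4.06 (adjusted p = 0.023). Leaving out any 1 WT liver ended the calls of *S100a8*, *S100a9* and *Cxcr2*, and leaving out WT replicate 3 that of *Lcn2*. Fewer neutrophil genes were called against the other genotypes. They were 2 of 10 against *Tnfr1*-/- livers, with a median of 3.65, and 1 of 10 against *Casp8*-/- *Mlkl*-/- livers, with a median of 2.83. Of all genes 2.05% and 1.54% were called higher in these comparisons. The neutrophil sum was 5540, 6667 and 18744 CPM in the *Casp8*-/- *Tnfr1*-/- livers and 703 to 3292 in the 8 others.
Of 9 myeloid progenitor genes 1 rose, *Cebpe*, a factor of late granulocyte progenitors, by 1.72 (SE 0.345, adjusted p = 0.0196), a call that was lost without any 1 WT liver. Their sum was 1285 and 1597 CPM in *Casp8*-/- *Tnfr1*-/- replicates 1 and 2, above all other livers, and 263 in replicate 3, below all of them. Without replicate 3, 6 of the 9 rose, where 7.28% of all genes were called higher. Replicate 3 thus had the most neutrophil RNA and the least of myeloid progenitors. Of the 10 genes it was lowest in *Flt3*, *Hlf*, *Gata2*, *Hoxa9* and *Cd48*, and highest in *Kit*, *Cd34*, *Meis1* and *Procr*. Among all genes tested it was lowest in 38.8% and highest in 32.3%.

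No erythroid gene of 10 was called, with a median of -0.26. *Epor*, the erythropoietin receptor, differed by -1.02 (adjusted p = 0.0641) and *Klf1*, an erythroid factor, by -1.11 (adjusted p = 0.0754). With both livers that stand apart left out all 10 erythroid genes fell, *Epor* by 0.78 and *Klf1* by 0.80 on the log2 scale. This fit called 13.5% of all genes lower. The erythroid sum was 13921 and 12662 CPM in *Casp8*-/- *Tnfr1*-/- replicates 1 and 2. In replicate 3, which this fit leaves out, it was highest, at 22479 CPM, against 13412 to 18885 in the 8 livers of the other genotypes. Of 8 megakaryocyte genes none was called over all livers, without replicate 3 or without both livers. *Vwf* and *Gp9*, a clotting factor and a platelet receptor subunit, differed by 1.18 (adjusted p = 0.159) and -0.57 (adjusted p = 0.415).
Of 9 lymphoid progenitor genes tested, none was called by edgeR and the median was -0.94. *Rag2*, of the V(D)J recombinase, differed by -1.45 (adjusted p = 0.228) and *Il7r*, a cytokine receptor, by 0.97 (adjusted p = 0.307). Their sum was 18.8, 19.6 and 23.6 CPM in *Casp8*-/- *Tnfr1*-/- livers and 16.8 to 124 in the others.

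Of 7 genes of mast cells and basophils tested, 3 had a positive log2 difference from WT, and the median was -0.02. Of these genes 1 was called, *Hdc*, which makes histamine and rose by 2.23 (adjusted p = 0.0436). Without replicate 3 it rose by 1.05 (adjusted p = 0.00218), and the call held in 4 of 11 fits with 1 liver left out, lost without any 1 WT or *Tnfr1*-/- liver or *Casp8*-/- *Mlkl*-/- replicate 2 or 3. The summed level of these genes in *Casp8*-/- *Tnfr1*-/- livers was 33.6, 44.1 and 121 CPM, against 18.6 to 38.4 in the others, and *Hdc* made up 115 of the 121 in replicate 3. The mast cell protease *Mcpt4* had 0 to 2 counts in every liver, and the basophil receptor *Fcer1a* 0 to 7. Their part in *Kit* and *Gata2* was not tested.
Of 10 macrophage genes, *Cd68* rose by 0.90 (adjusted p = 0.0293), and the Kupffer cell genes *Clec4f* and *Marco* fell by 4.23 (adjusted p = 0.0436) and 1.51 (adjusted p = 0.0495). Each of these last calls held in 3 of 11 fits with 1 liver left out, and neither held without *Casp8*-/- *Tnfr1*-/- replicate 3 (*Clec4f* -3.80, adjusted p = 0.0537, and *Marco* -1.26, adjusted p = 0.0764). *Cd68* held in 6 of 11, and was lost without any 1 WT or *Tnfr1*-/- liver. These 3 genes were called against WT. Against *Casp8*-/- *Mlkl*-/- livers *Marco* fell by 2.79 (adjusted p = 0.00868), whereas *Clec4f* differed by -1.71 and was not called (adjusted p = 0.44). With both livers that stand apart left out, *Clec4f* differed by 1.005 from *Casp8*-/- *Mlkl*-/- livers, again not called (adjusted p = 0.186). In that fit it was -3.78 against WT. The differences between these comparisons were not tested. The macrophage sum in *Casp8*-/- *Tnfr1*-/- livers, 394, 355 and 292 CPM, lay below that of all 8 other livers, 431 to 1264. The list includes Kupffer cell genes such as *Clec4f* and *Marco*, while *Cd68* in the same list rose. A lower sum of this list therefore does not show fewer macrophages. The paper describes myeloid aggregates with macrophages among them in *Casp8*-/- *Tnfr1*-/- livers of the same age. Macrophage numbers were not tested here.
*Pecam1* rose by 1.30 (adjusted p = 0.0449), 1 of 10 endothelial genes, and by 0.74 without replicate 3 (adjusted p = 0.00891). Its call held in 4 of 11 fits with 1 liver left out and was lost without the same livers as that of *Hdc*, with an adjusted p of up to 0.167. No hepatocyte, stromal or striated muscle gene was called over all livers. *Fgb* and *Trf* among hepatocyte genes differed by 2.05 (adjusted p = 0.147) and 0.81 (adjusted p = 0.481), *Des* and *Pdgfrb* among stromal genes by 2.35 (adjusted p = 0.0613) and 1.13 (adjusted p = 0.0856), and *Tnni1* and *Tnnt3* among muscle genes by 4.14 (adjusted p = 0.0533) and 7.23 (adjusted p = 0.0645). The muscle median of 6.09 came from replicate 3, and without this liver it was 1.17.

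**Figure D4:**
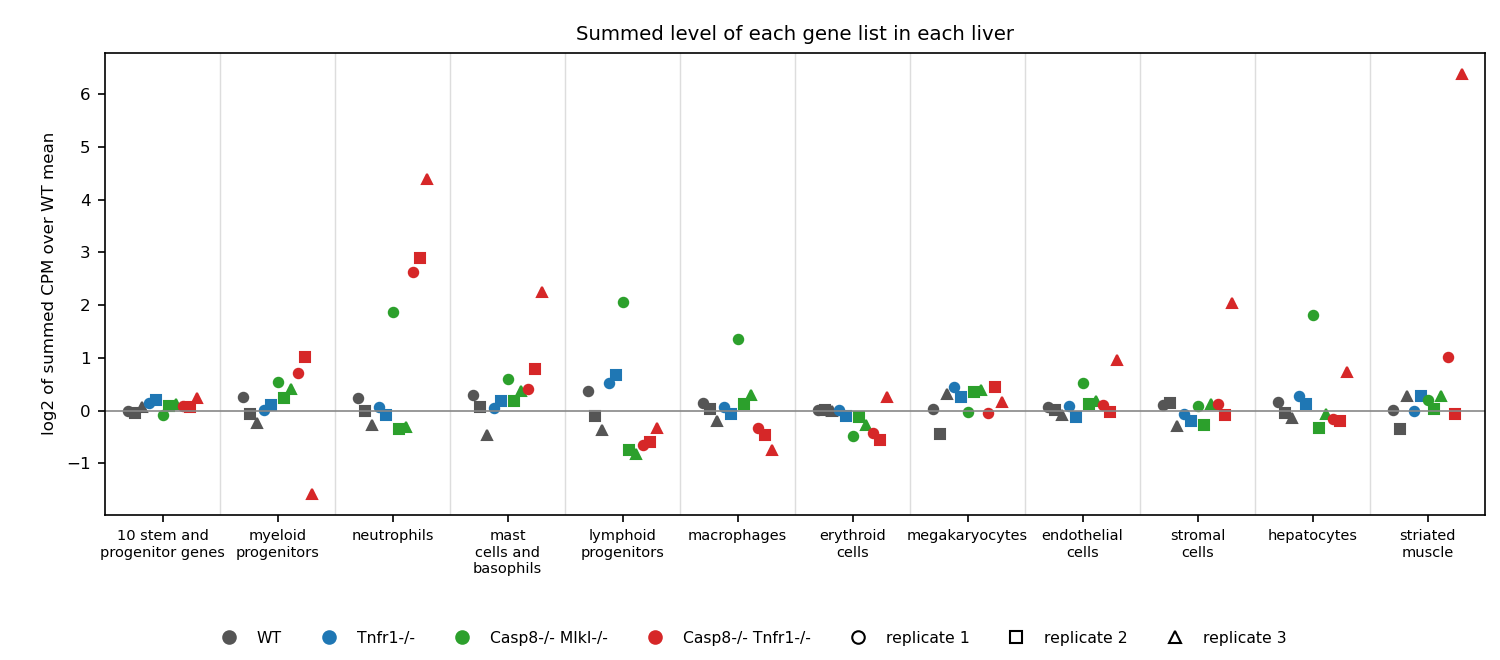
Summed CPM of each list in each liver, as the log2 ratio to the mean of the WT livers. The sum of the 10 stem and progenitor genes, to which *Kit* adds most, stays near 0 in all livers although single genes do not, the neutrophil lists of all 3 *Casp8*-/- *Tnfr1*-/- livers lie above the others, and *Casp8*-/- *Tnfr1*-/- replicate 3 (red triangle) and *Casp8*-/- *Mlkl*-/- replicate 1 (green circle) stand apart in several lists.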

How the data were processed

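RNA-seq of 11 fetal livers was analysed. Alignment by the authors was to GRCm38 with GSNAP, and the deposited raw counts give, per Ensembl gene, the reads that mapped uniquely to exons. They also deposited RPKM values, which were not tested. RPKM here were recomputed from TMM-scaled counts and the deposited gene width. The counting tool, use of strand and annotation release are not given in the sources used here, and the labels and the paper name different library kits and sequencers. Genes were matched to GENCODE M21.

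Genes were filtered with filterByExpr (minimum count 10), scaled by TMM and tested with edgeR 4.0.16 (quasi-likelihood, R 4.3.3) over all livers with genotype as the only term. Log2 CPM were computed with a prior count of 2. The SE of an edgeR difference was its absolute log2 fold change divided by the square root of F, and intervals were computed from this SE. P values were adjusted by Benjamini-Hochberg over 17243 genes, with a threshold of 0.05. DESeq2 1.42.0, limma-voom (limma 3.58.1) with and without quality weights, other scalings and filters, a replicate block and leaving out each liver were alternatives. The edgeR test was checked on simulated data. Library totals and leaving out both livers that stand apart were chosen after seeing the data.

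The 10 genes and all lists were chosen with earlier results of these data known. Named were the 10 genes, in each list the genes called against WT (up to 4, by smallest p) or else the 2 of smallest p, and the 2 genes nearest to each of the 10. *Kitl*, *Mcpt4* and *Fcer1a* were added after their values were seen. Lists can share genes, and 1 list gene is counted in its lists but not reported here. Promoters are from RefSeq (GRCm38.p6). Reads carry no molecular identifiers, so limits on counts cover counting error only.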

Additional observations from a re-analysis of the deposited data

How the results depend on the processing

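Of the 10 genes, edgeR called 0 in each comparison over all livers. Shares of all genes called in the same fit are in brackets. Against WT, higher calls numbered 1 with DESeq2 (10.3%), 2 with quality weights (17.0%) and 3 without both livers that stand apart (17.8%). Lower calls numbered 1 with quality weights (13.6%) and 1 without both livers (13.5%). Leaving out 1 liver at a time gave 0 to 1 higher, with 1 (*Cd48*) only without *Casp8*-/- *Tnfr1*-/- replicate 3. Against *Tnfr1*-/- there were 2 higher (14.6%) and 3 lower (10.5%) with quality weights, and 1 higher (13.9%) and 3 lower (9.30%) without both livers. Without *Casp8*-/- *Tnfr1*-/- replicate 3, 1 was higher (4.46%). Against *Casp8*-/- *Mlkl*-/- 1 was higher without both livers (12.0%). Over the genotypes 4 were called with quality weights (29.2%) and 2 without both livers (30.8%). The number of genes without overlap was 1 above and 1 below, beside 7.43% and 3.32% of all genes. It became 2 above (18.6%) and 2 below (12.3%) without both livers, 2 below with DESeq2 size factors (3.67%) and 0 below with library totals (1.77%). With 1 liver left out it was 1 to 2 above and 1 to 2 below. With a call on either side, the sign turned for *Cd48* (0.51) and *Trf* (0.62) against *Casp8*-/- *Mlkl*-/- without both livers. Differences called in neither fit changed sign more often, as for *Meis1* against WT. The cause was not tested. Over all genes, 879 were higher and 121 lower against WT, 1775 and 589 with DESeq2, 2934 and 2345 with quality weights, 1239 and 435 without replicate 3, 3017 and 2297 without both livers, and 952 and 34 with library totals. Fewer were called with the 2 genotypes alone (451 and 35), with the replicate block (532 and 40) and without WT replicate 1 (355 and 13), 2 (284 and 11) or 3 (270 and 11), *Tnfr1*-/- replicate 1 (527 and 31) or 2 (545 and 29), and *Casp8*-/- *Mlkl*-/- replicate 2 (740 and 67) or 3 (699 and 43). Nothing in the labels says that livers of the same replicate number are paired. In log2 CPM less the genotype mean, 5 of 15 same-numbered pairs correlated over 0.1, and r ran from -0.30 to 0.27. With 2 or 3 livers per genotype these values cannot decide whether such livers share a litter or batch. With the replicate block 0 of the 10 were called. *Hoxa9*, *Procr* and *Flt3* rest on few counts.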
